A study of Mus musculus with 2 samples.

Results

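A set of 8 enzymes through which myeloid cells use up amino acids or release small immunosuppressive products was followed in lungs of mice bearing 4T1 tumors. They were Arg1, Arg2, Nos2, Acod1, Il4i1, Ido1, Ptgs2 and Ptges, chosen by gene symbol, and all 8 were found among the 32285 genes of the matrices. 4T1 is a mouse mammary carcinoma line that stands as a model of metastatic triple-negative breast cancer. Female BALB/c mice (strain BALB/cJ, 12 weeks) received 100000 4T1 cells and, from day 1 on, intravenous injections every 3 days, 5 in all. One group received saline and the other PLG nanoparticles without cargo (NP). On day 14 the lungs of 4 mice per condition were pooled, according to the labels, into 1 single cell suspension and 1 droplet library per condition. Both groups carried tumors, so no healthy lung entered the comparison. With 1 library per condition no test between NP and saline could be made, and every interval given here is a 95% interval that covers counting error only.

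Arginase cuts arginine into ornithine and urea. Arg1 is the cytosolic and Arg2 the mitochondrial form, while Nos2, the inducible nitric oxide synthase, turns the same arginine into nitric oxide. Acod1 makes itaconate from cis-aconitate in activated phagocytes. Il4i1 is a secreted oxidase of aromatic amino acids that releases hydrogen peroxide, and Ido1 opens the path from tryptophan to kynurenine. Ptgs2, or COX-2, forms prostaglandin H2, which Ptges converts into prostaglandin E2. These enzymes are known from suppressor neutrophils, tumor macrophages and regulatory dendritic cells, where they act on neighboring T cells.

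On GRCm38 the genes lie on 8 different chromosomes. Arg1 is at chr10:24915221-24927484 on the minus strand, Arg2 at chr12:79130777-79156301 on the plus strand and Nos2 at chr11:78920787-78960254 on the plus strand. Acod1 is at chr14:103046977-103056573 and Il4i1 at chr7:44816387-44840809, both on the plus strand. Ido1 is at chr8:24584136-24597009 on the minus strand, Ptgs2 at chr1:150100031-150108227 on the plus strand and Ptges at chr2:30889471-30929863 on the minus strand.

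Acod1 and Ptgs2 are the members that were higher in NP in each of the 4 myeloid classes as clustered here. Their upstream sequences are shown for that reason. The Ptgs2 direction in macrophages turned under 2 alternatives. In monocytes and macrophages the Acod1 level lay below that of T cells, a class that should lack it. RefSeq promoters on GRCm38.p6, 250 bases before the start, were held for 4 members (Acod1, Ptgs2, Il4i1 and Ptges). The stretch printed for Ptgs2 is chr1:150099781-150100030 and that for Acod1 is chr14:103046762-103046976, both on the plus strand. The Acod1 stretch ends 35 bases before the RefSeq start, where the annotated gene begins. Capitals mark motif matches.
Ptgs2: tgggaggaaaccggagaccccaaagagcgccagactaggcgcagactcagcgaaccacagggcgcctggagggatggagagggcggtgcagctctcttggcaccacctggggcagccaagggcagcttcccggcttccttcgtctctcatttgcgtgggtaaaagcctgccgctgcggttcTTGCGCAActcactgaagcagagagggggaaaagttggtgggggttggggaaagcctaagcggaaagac
Acod1: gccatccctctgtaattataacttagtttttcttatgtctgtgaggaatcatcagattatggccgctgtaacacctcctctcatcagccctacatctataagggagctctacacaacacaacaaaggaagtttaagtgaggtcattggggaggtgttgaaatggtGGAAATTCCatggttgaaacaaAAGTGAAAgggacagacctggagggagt
The search used 7 motifs on both strands, chosen with the sequences in view. The Acod1 stretch held an NF-kB motif (GGNNNTTCC) 85 bases and an IRF motif (AANNGAAA) 63 bases before the start. Of all 32851 promoters, 15.7% held the first and 21.3% the second. The Ptgs2 stretch held a C/EBP motif (TTGCNNAA) 69 bases before the start, which 9.56% of the promoters held. The other motifs were GAS (TTCNNNGAA, in 7.02% of promoters), the CRE core (TGACGT, 6.47%), the E-box (CACGTG, 6.02%) and the TATA box (TATAAA, 12.4%). Of these only the TATA box had a match, 28 bases before the Acod1 start, in the part not printed. None of the 7 was found in the Il4i1 and Ptges windows.

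The libraries were of like depth, with 91168129 UMIs (unique molecules counted) in saline and 90081747 in NP. A barcode counted as a cell when it showed 500 to 5000 genes and had less than 7.5% of its UMIs on mitochondrial genes, which left 8662 saline and 8333 NP cells with medians of 6474.5 and 6008 UMIs. The kept cells of the libraries shared 21 barcodes. Clusters were named from marker lists, so each class is a "neutrophil-like" or "monocyte-like" group, written here without the suffix. Neutrophils numbered 5520 in saline and 2942 in NP, monocytes 738 and 1394, macrophages 162 and 240, and dendritic cells 56 and 93. All 14 neutrophil markers were detected in the neutrophils, where they summed to 327355 CPM in saline and 353266 CPM in NP. CPM is the number of UMIs of a gene scaled to 1000000 UMIs of its class. The class names were rebuilt here, so they need not match those of the study.

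Neutrophils held most of the UMIs of 4 of the enzymes in both libraries. Of all Arg2 UMIs in kept cells, neutrophils carried 85.6% in saline and 71.4% in NP. Their share was 90.4% and 65.9% for Nos2, 91.1% and 74.6% for Acod1, and 81.0% and 58.2% for Ptgs2. In each case the NP share was the smaller one, and the NP library also held fewer neutrophils (35.3% of cells against 63.7%). These shares depend on the number of cells and are not levels. Basophils and mast cells (21 saline and 39 NP cells) had 174194 and 269348 UMIs in all. Of these, 50 and 109 were Acod1 and 89 and 274 were Ptgs2, a higher level of both than in neutrophils. Endothelial cells held 14.9% of the NP Nos2 UMIs. The remaining enzymes lay elsewhere. Il4i1 was carried mostly by B cells in saline (59.6% of 188 UMIs) and by dendritic cells in NP (68.4% of 617 UMIs). Ptges was spread over stromal cells (36.9% in saline and 28.4% in NP), neutrophils, macrophages and, in NP, dendritic cells (27.1%). Ido1 was rare, with 10 UMIs in saline and 45 in NP, of which endothelial cells held 60.0% and 75.6%. Arg1 had 42 and 50 UMIs, and 76.2% and 58.0% of them lay in a small unnamed cluster of 38 and 34 cells led by Gata3, Cxcr6 and Il1rl1.

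**Figure D1:**
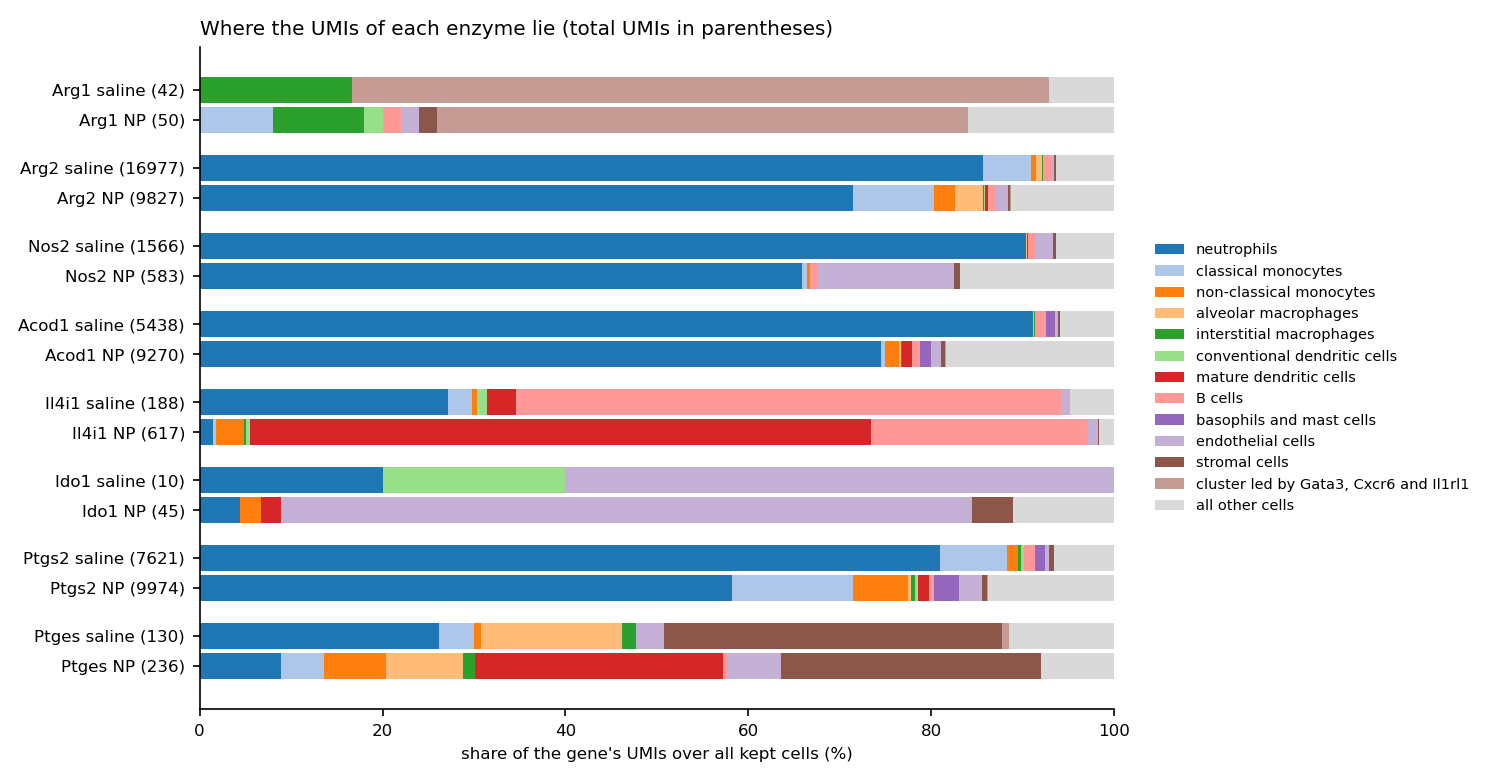
Share of each enzyme's UMIs (percent, horizontal axis) by cell class, with 1 bar per enzyme and library and the total UMIs in parentheses. Neutrophils hold 58.2% to 91.1% of Arg2, Nos2, Acod1 and Ptgs2 in both libraries, and mature dendritic cells take most of the NP Il4i1.

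The first comparison asked whether neutrophils of NP mice carried another set of these enzymes than those of saline mice. Acod1 mRNA was 2.84-fold higher in NP neutrophils, Ptgs2 was 1.91-fold higher, Nos2 was lower and Arg2 was at the same level. Of the 8 genes, 6 had at least 20 UMIs in the class over both libraries. Of these 6, 1 was at least 2-fold higher in NP, where 4.23% of 11039 genes were, and 1 was at least 2-fold lower, where 3.09% were. The median log2 ratio of the 6 was 0.15, beside -0.13 for all genes.

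Among the arginine enzymes, Arg1 was not detected in neutrophils. It had 0 UMIs in 5520 saline and 2942 NP cells, which allows up to 0.0632 and 0.129 CPM, or a UMI in up to 0.0543% and 0.102% of cells. Arg2 had 14537 UMIs (306 CPM) in saline and 7016 UMIs (301 CPM) in NP neutrophils. The log2 ratio of NP to saline was -0.03 (-0.07 to 0.01), so the levels did not differ beyond counting error. At least 1 Arg2 UMI was seen in 85.8% of saline and 84.8% of NP neutrophils, beside 8.99% and 5.25% of T cells, a class that should lack it. The median depth was 6048 and 5321.5 UMIs in neutrophils, and 6323 and 6667 in T cells. When every cell was thinned to 1000 UMIs, leaving out 7 saline and 4 NP neutrophils under that depth, 30.2% and 30.4% of neutrophils still held Arg2.

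Nos2 was the member with less mRNA in NP neutrophils at a well measured level. It had 1415 UMIs (29.8 CPM) in saline and 384 (16.5 CPM) in NP, a log2 ratio of -0.86 (-1.02 to -0.69), and the saline level was 1.81 times that of NP (1.62 to 2.03). A UMI was found in 14.7% of saline and 8.33% of NP neutrophils, against 1.50% and 1.05% of T cells. After thinning the neutrophil shares were 2.54% and 1.40%. The ratio did not reach 2-fold.

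Acod1 showed the highest ratio of the well measured enzymes in neutrophils. It went from 4956 UMIs (104 CPM) in saline to 6911 UMIs (296 CPM) in NP, although the NP class had fewer cells. The log2 ratio was 1.50 (1.45 to 1.56), or 2.84-fold (2.73 to 2.94). Cells with a UMI made up 37.5% of saline and 62.4% of NP neutrophils, and 10.9% and 27.9% after thinning. In T cells the shares were 3.64% and 4.20%, and 1.07% and 0.787% after thinning, well below those of neutrophils. The highest single neutrophil held 29 Acod1 UMIs in saline and 50 in NP.

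Ptgs2 was also higher, with 6173 UMIs (130 CPM) in saline and 5802 (249 CPM) in NP neutrophils. The log2 ratio was 0.93 (0.88 to 0.99), just under the 2-fold mark. It was 0.09 when the 8 enzymes were among the clustering genes and 0.37 with at least 200 genes per cell. A UMI was seen in 31.2% and 44.1% of cells, and in 13.7% and 23.7% after thinning. The T cell shares were 3.64% and 4.72%. Ptgs2 is an immediate-early gene that dissociation of tissue can induce. A list of 18 dissociation genes had a median log2 ratio of 0.26 in these neutrophils, beside -0.13 for all genes. Of the 18, 14 were above 0 and, like Ptgs2, none was past 2-fold. The highest was Egr1 at 0.69. The part of dissociation in the Ptgs2 difference was not tested. Ptges, the next enzyme of the path, was near its detection limit, with 34 UMIs (0.716 CPM) in saline and 21 (0.900 CPM) in NP neutrophils and a log2 ratio of 0.33 (-0.53 to 1.16).

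Il4i1 and Ido1 were close to absent from neutrophils. Il4i1 had 51 UMIs (1.07 CPM) in saline and 9 (0.386 CPM) in NP, a log2 ratio of -1.48 (-2.69 to -0.44). However, 24 of the 51 saline UMIs came from 1 cell, and only 0.489% of saline and 0.306% of NP neutrophils had a UMI, against 0.428% and 0.525% of T cells. The share of neutrophils with Il4i1 was thus near that of T cells. Ido1 had 2 UMIs in each library.

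**Figure D2:**
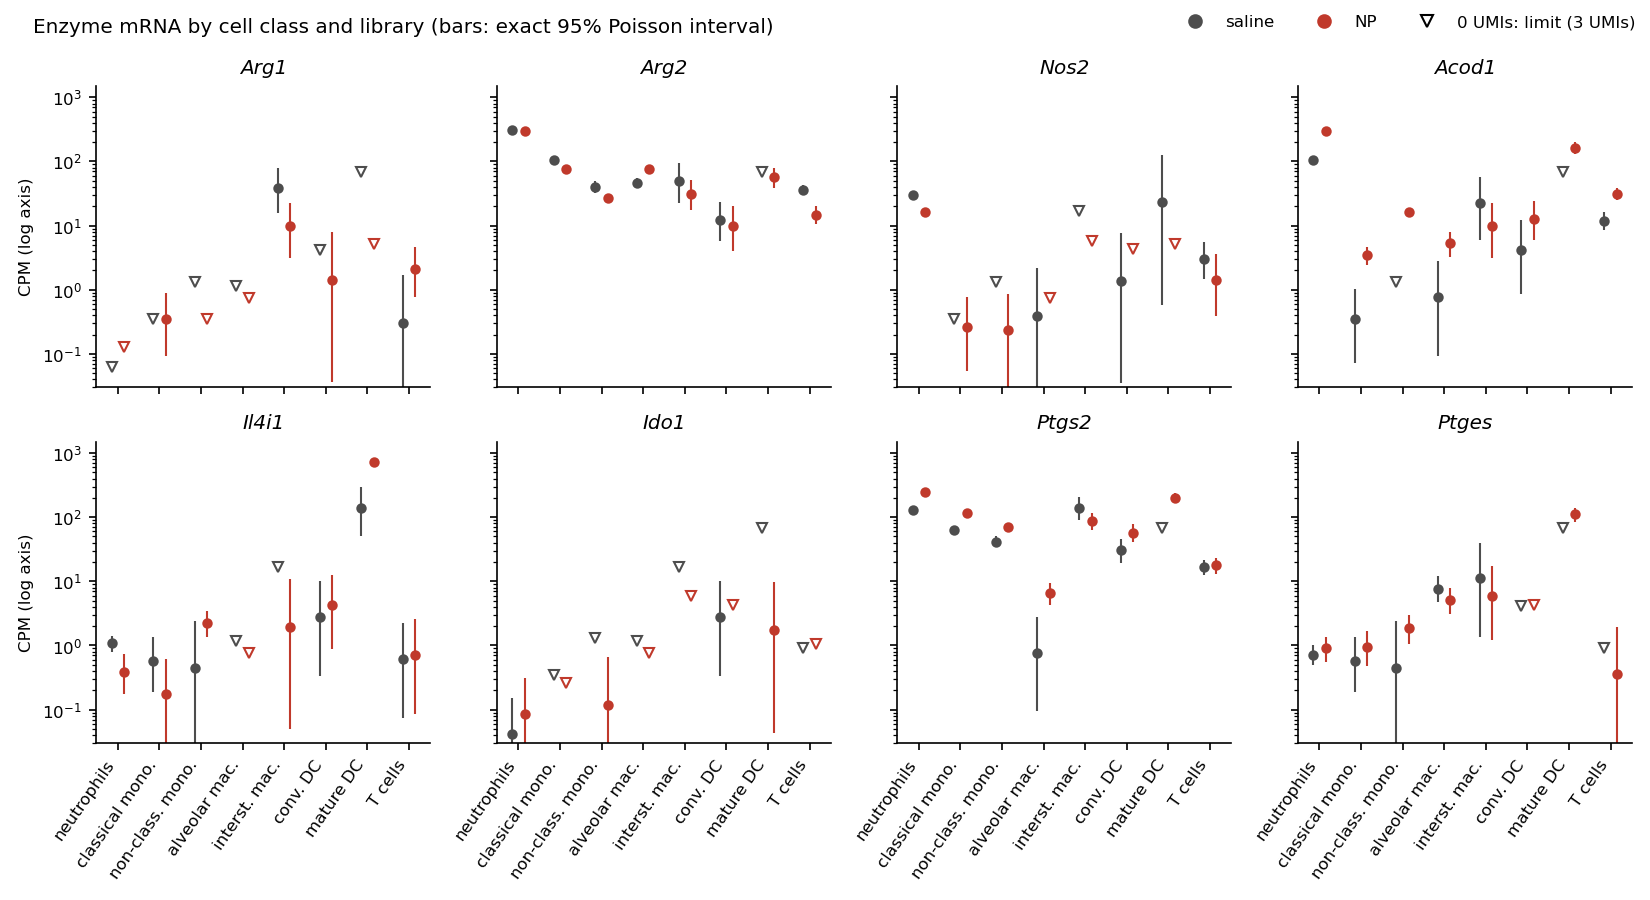
CPM (log axis) of each enzyme by cell class in saline (dark) and NP (red), with exact 95% Poisson intervals cut at the lower edge and open triangles at the limit of 3 UMIs where none was counted. Acod1 lies at 104 CPM in saline and 296 CPM in NP neutrophils while Arg2 lies at 306 and 301 CPM, and Il4i1 reaches 722 CPM in mature dendritic cells of NP mice.

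Neutrophils mature in steps, from cells rich in granule protein mRNA to cells rich in chemokine and activation genes. They were clustered again without the 8 enzymes, and 11 neutrophil clusters were ordered by the share of their UMIs on an immature gene list, from 0.283% to 10.7%. The mix of clusters differed between the libraries. The cluster led by Rsad2 and Ifi47, which are interferon-induced genes, had 146 saline and 1091 NP cells, whereas the cluster led by Csta3 and Saa3 had 977 and 21. Comparisons were therefore also made within clusters.

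Acod1 was higher in NP in each of the 10 clusters that had at least 20 cells in both libraries. Its log2 ratio ran from 0.66 to 1.70, all 10 intervals lay above 0, and 6 clusters were past 2-fold. The highest level was in the Rsad2 and Ifi47 cluster of NP, at 651 CPM against 264 CPM in saline (log2 1.30). In the Ppp1r15a and Cxcr4 cluster it was 336 CPM against 212 CPM (0.66), and in the most immature of these, led by Camp and Chil3, it was 24.9 CPM against 9.80 CPM (1.34). Thus the level depended on the cluster, and the direction was the same in all 10. Free RNA, taken from barcodes under 50 UMIs, held Acod1 at 56.3 CPM in saline and 102 CPM in NP. The Camp and Chil3 cluster lay below these levels. In T cells, which should lack Acod1, the log2 ratio was 1.38 (39 and 88 UMIs). The part of free RNA in the ratios within clusters was not tested. With both libraries given the same mix of clusters, the log2 ratio over all neutrophils was 1.07.

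Ptgs2 was likewise higher in NP in 10 of 10 clusters, with 7 intervals above 0 and 2 clusters past 2-fold. The ratio was 1.36 on the log2 scale in the Saa3 and Hist1h4i cluster, where 382 CPM in saline stood against 980 CPM in NP. It was 0.50 in the Rsad2 and Ifi47 cluster (360 and 510 CPM) and 0.12 in the Prok2 and Mov10 cluster (81.5 and 88.5 CPM). Unlike Acod1, Ptgs2 was highest in the clusters with the lowest immature share. The same mix of clusters gave a log2 ratio of 0.74.

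Nos2 followed another order. In saline it was highest in clusters of intermediate rank, at 58.9 CPM in the Prok2 and Mov10 cluster and 43.6 CPM in the Stfa3 and Stfa2 cluster, and it was 13.3 CPM in the Saa3 and Hist1h4i cluster. It was lower in NP in 9 of 9 measured clusters, from -1.83 to -0.03 on the log2 scale, with 4 intervals below 0. The Prok2 and Mov10 cluster had 26.9 CPM in NP (-1.13) and the Ggt1 and Prok2 cluster had 31.1 CPM in saline and 12.0 CPM in NP (-1.37). In the Cxcl2 and Cxcr1 cluster the levels were 36.7 and 34.9 CPM. The ratio with the same mix of clusters was -0.81. Free RNA held Nos2 at 10.3 CPM in saline and 7.69 CPM in NP, and its part in these ratios was not tested.

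Arg2 differed little within clusters. It was higher in NP in 3 of 10, with a range of -0.32 to 0.38 on the log2 scale, 1 interval below 0 and a ratio of -0.01 at the same mix. Its level was 471 and 466 CPM in the Ppp1r15a and Cxcr4 cluster and 57.6 and 63.1 CPM in the Camp and Chil3 cluster, so the spread between clusters was far larger than that between libraries.

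**Figure D3:**
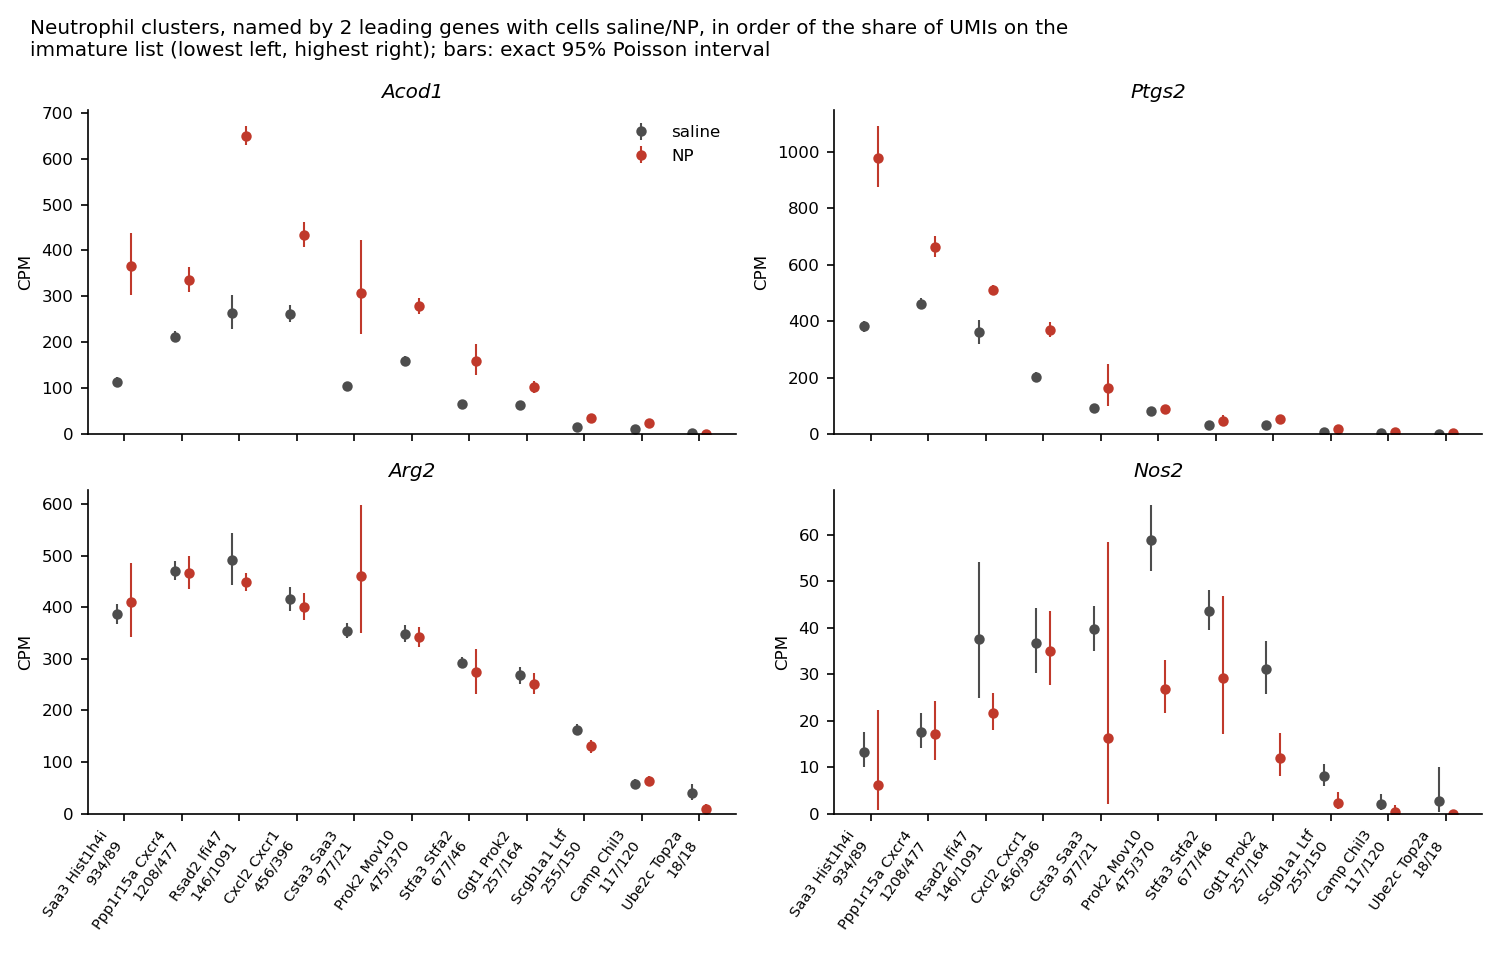
CPM (linear axis from 0) of 4 enzymes in 11 neutrophil clusters, named by 2 leading genes with the cells in saline and NP, ordered from the lowest to the highest share of immature-list UMIs; points are saline (dark) and NP (red) with exact 95% Poisson intervals. Acod1 and Ptgs2 lie higher in NP in the 10 clusters with at least 20 cells in each library, and Arg2 points lie close together.

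Ptgs2 was seen more often in neutrophils with Acod1 than in those without it. In cells thinned to 1000 UMIs, Ptgs2 was seen in 20.2% of saline neutrophils with Acod1 and in 12.9% of those without. In NP the shares were 29.4% and 21.5%. Arg2 showed the same. Ptgs2 was seen in 16.8% of saline neutrophils with Arg2 and 12.4% of those without, and in 28.7% and 21.5% in NP. With and without Nos2, the Ptgs2 shares were 10.7% and 13.8% in saline and 24.4% and 23.7% in NP. Acod1 was seen in 11.6% of saline neutrophils with Arg2 and 10.6% of those without, and in 32.6% and 25.9% of NP neutrophils. For Nos2, which few thinned cells held, Acod1 was seen in 19 of 140 Nos2-positive cells of saline (13.6%, against 10.9% without) and in 8 of 41 of NP (19.5%, against 28.0%). These shares describe cells of 1 library each and were not tested.

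In monocytes, where Arg1 and Nos2 are the enzymes usually sought in suppressor cells, both were close to absent. Acod1 was seen almost only in NP, Ptgs2 was higher in NP and Arg2 was lower. Of the 8 genes, 5 had 20 UMIs, and 2 of these (Acod1 and Ptges) were at least 2-fold higher in NP, where 3.41% of 11243 genes were. None was 2-fold lower, where 1.52% were. The median log2 ratio was 0.92 for the 5 and -0.03 for all genes.

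Arg1 had 0 UMIs in saline monocytes, which allows 0.276 CPM, and 4 in NP. Nos2 had 0 and 5. Arg2 had 982 UMIs (90.4 CPM) in saline and 1101 (54.8 CPM) in NP, a log2 ratio of -0.72 (-0.85 to -0.60). Of the cells, 55.3% and 38.9% held an Arg2 UMI, and 7.45% and 5.46% did after thinning, against 2.78% and 0.787% of thinned T cells. The pooled level was lower in NP in both kinds of monocyte as named here. In classical monocytes (530 and 685 cells) Arg2 was 104 CPM in saline and 75.5 CPM in NP (-0.46). Cells named non-classical monocytes, a kind that patrols the vessel wall, numbered 208 and 709 and had 39.9 and 26.8 CPM (-0.58, -0.93 to -0.21). They included the H2-Ab1 and H2-Aa cluster (117 and 358 cells). Its marker score was 1.44 for non-classical monocytes and 1.31 for monocytes, so its name is uncertain. The Cd300e and Eno3 cluster scored 3.97 for non-classical monocytes. Among 5 monocyte clusters with 20 cells in each library, 4 had intervals below 0. The remaining one, the Cd300e and Eno3 cluster of non-classical monocytes, went the other way. It had 6.48 CPM in saline and 13.8 CPM in NP (1.09), with an interval that included 0. At the same mix of clusters the ratio was -0.55. Free RNA held Arg2 at 195 CPM in saline and 131 CPM in NP, and its part in the Arg2 ratio was not tested. The summed level of the neutrophil markers in monocytes moved the same way, from 4228 CPM in saline to 1955 CPM in NP with all 14 markers detected in both, and its part in the Arg2 difference was not tested.

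Acod1 had 3 UMIs (0.276 CPM) in saline and 178 (8.85 CPM) in NP monocytes, a ratio of 32.0 (10.8 to 157). The NP level lay mostly in non-classical monocytes, with 0 UMIs in 208 saline cells and 138 UMIs (16.1 CPM) in 709 NP cells, at least 12.3-fold higher when saline is set to 3 UMIs. In that class 11.8% of NP cells had a UMI. T cells of NP had one in 4.20% of cells at 31.1 CPM, with 24 of their 88 UMIs in 1 cell, and their median depth was 6667 UMIs against 11850 in the non-classical monocytes. At 1000 UMIs per cell the share was 1.55% in NP non-classical monocytes and 0.787% in NP T cells. Among the clusters, the Cd300e and Eno3 cluster had 85 UMIs (27.8 CPM) in 351 NP cells and none in 91 saline cells. The H2-Ab1 and H2-Aa cluster had 53 UMIs (9.63 CPM) in 358 NP cells and none in 117 saline cells. Of 3 measured clusters only 2 were higher in NP. The log2 ratio of the third was -0.10, computed with the floor of 3 UMIs. In classical monocytes Acod1 had 3 and 40 UMIs, 17 of the 40 in 1 cell, and 2.34% of NP cells had one, which is not above the T cell share. Barcodes under 50 UMIs, taken as free RNA, held Acod1 at 56.3 CPM in saline and 102 CPM in NP. After subtraction of that profile at 5 percent of UMIs, the log2 ratio in monocytes was 3.77 where it had been 5.00. Subtraction left the saline count under 3 UMIs, which the ratio sets to 3. The 3.77 is thus a lower bound under that setting and not a corrected level. Without subtraction, the log2 ratio in monocytes was 1.68 with cells classed by their own marker scores. With unnamed clusters given back to their nearest class it was 1.52.

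Ptgs2 had 646 UMIs (59.5 CPM) in saline and 1926 (95.8 CPM) in NP monocytes, a log2 ratio of 0.69 (0.56 to 0.82). The share of cells was 22.2% and 31.4%. Classical monocytes had 64.2 and 115 CPM (0.83, 0.69 to 0.98) and non-classical monocytes had 41.6 and 70.5 CPM (0.76). The ratio was above 0 in 5 of 5 clusters, from 0.06 in the Prtn3 and Vcan cluster (81.9 and 85.2 CPM) to 1.28 in the Saa3 and Tmem176b cluster (55.6 and 135 CPM). Only 2 of the 5 intervals lay above 0.

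Ptges had 6 UMIs (0.552 CPM) in saline and 27 (1.34 CPM) in NP monocytes. Its log2 ratio of 1.28 (-0.02 to 2.85) passed 2-fold with an interval that reached 0. Il4i1 had 6 and 21 UMIs (0.92, -0.44 to 2.52), with 19 of the 21 in non-classical monocytes, and Ido1 had 0 and 1. These low counts left the direction of Ptges and Il4i1 undetermined.

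**Figure D4:**
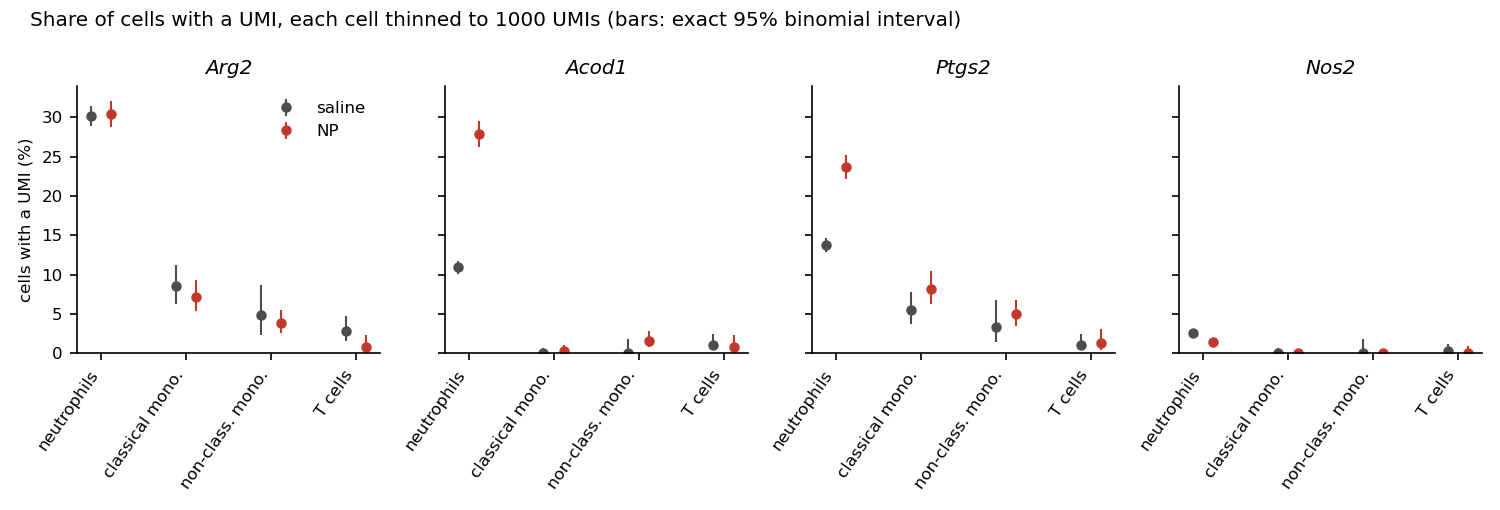
Share of cells with a UMI (percent) of Arg2, Acod1, Ptgs2 and Nos2 in neutrophils, classical monocytes, non-classical monocytes and T cells after thinning each cell to 1000 UMIs, saline dark and NP red, with exact 95% binomial intervals. Acod1 goes from 10.9% to 27.9% and Ptgs2 from 13.7% to 23.7% of neutrophils, Arg2 stays at 30.2% and 30.4%, and monocyte Acod1 lies near the T cell share.

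Macrophages were mainly alveolar (146 saline and 203 NP cells), with few interstitial cells rich in C1q (16 and 37). Arg2 was higher in NP in the clustered macrophages, and the other enzymes were sparse. Of 4 measured members, 1 (Acod1) was at least 2-fold higher, where 1.74% of 9982 genes were, and none was 2-fold lower, where 1.14% were. The median log2 ratio was 0.65 for the 4 and -0.05 for all genes.

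Arg2 had 128 UMIs (46.2 CPM) in saline and 314 (69.9 CPM) in NP macrophages, a log2 ratio of 0.60 (0.30 to 0.91), but -0.18 with cells classed by their own marker scores. In alveolar macrophages, the resident cells of the air spaces, it was 45.9 CPM in saline and 74.9 CPM in NP (0.71, 0.39 to 1.02), with a UMI in 39.0% and 64.0% of cells. Interstitial macrophages had 9 and 16 UMIs. The neutrophil marker sum went the other way from Arg2, from 1977 CPM in saline to 753 CPM in NP macrophages, with all 14 markers detected in both. Arg1, the arginase of alternatively activated macrophages, had 0 UMIs in the alveolar cells of both libraries, which allows 1.16 CPM in saline and 0.754 CPM in NP. In interstitial macrophages it had 7 UMIs in 1 saline cell and 5 UMIs in 2 NP cells. Nos2 had 1 UMI in saline and 0 in NP.

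Acod1 had 6 UMIs (2.17 CPM) in saline and 26 (5.79 CPM) in NP macrophages, a log2 ratio of 1.42 (0.11 to 2.99). In alveolar macrophages the counts were 2 and 21. Taken as they stand, without the floor of 3 UMIs used elsewhere, they give a ratio of 6.84 (1.67 to 60.2). Of NP alveolar cells, 4.93% had a UMI, near the 4.20% of NP T cells, at median depths of 19588 and 6667 UMIs. In T cells, 39 of 3263654 UMIs in saline and 88 of 2828913 in NP were Acod1, a log2 ratio of 1.38. That level was above the macrophage level in both libraries. Free RNA held Acod1 at 56.3 CPM in saline and 102 CPM in NP. The part of this background in the macrophage ratio was not tested. Ptgs2 had 27 UMIs (9.74 CPM) and 71 (15.8 CPM), a log2 ratio of 0.70 (0.04 to 1.39). The subtypes differed in direction for Ptgs2, which had 2 and 26 UMIs in alveolar cells and 139 CPM in saline against 87.6 CPM in NP in interstitial cells (-0.67, -1.40 to 0.10). That difference between subtypes was not tested. Over all macrophages the Ptgs2 ratio was -0.56 with equal weight per cell and -0.58 with classes set by the marker score of each cell. Ptges was seen in 10.3% of saline and 8.37% of NP alveolar macrophages with 20 UMIs in each library, and over all macrophages its ratio was -0.63 (-1.54 to 0.28).

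Dendritic cells were few, and the kinds within the class differed between the libraries. Conventional dendritic cells numbered 44 and 45, while mature dendritic cells, which carry antigen to lymph nodes, numbered 12 in saline and 48 in NP. The 12 saline cells were shallow, with a median of 2583.5 UMIs against 14175.5 in NP. Doublets were kept, and 14.3% of saline and 3.23% of NP dendritic cells were called doublets. All 5 measured enzymes (Arg2, Acod1, Il4i1, Ptgs2 and Ptges) were at least 2-fold higher in NP over the whole class, where 6.95% of 7426 genes were, and none was lower, where 5.25% were. The limit of 20 UMIs was set over both libraries, so a member nearly absent from saline could pass only through its NP count. Il4i1, for example, had 8 UMIs in saline and 422 in NP. The count of 5 was thus partly set by that limit. In conventional dendritic cells alone only Ptgs2 reached 20 UMIs, and it was not past 2-fold, while the other 4 could not be judged there. The sum of mature markers went from 696 CPM in saline to 2436 CPM in NP over the class, so the share of mature cells moved with these ratios. With cells classed by their own marker scores, 3 members were past 2-fold, and the log2 ratio of Arg2 was -0.38 and that of Ptgs2 0.53.

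Il4i1, known as an enzyme of mature dendritic cells and germinal center B cells, had 8 UMIs (10.4 CPM) in saline and 422 (329 CPM) in NP dendritic cells, a ratio of 31.7 (15.9 to 73.8). Mature dendritic cells held 6 of the 8 and 419 of the 422. Within mature cells the level was 138 CPM in saline and 722 CPM in NP, a log2 ratio of 2.39 (1.26 to 3.84). Il4i1 was found in 2 of 12 saline and 43.8% of 48 NP mature cells, and 1 NP cell held 96 UMIs. After thinning to 1000 UMIs the shares were 18.2% and 20.9% of 11 and 43 cells, so no difference in the share of positive cells was detectable at equal depth. B cells, the other source, had 32.6 CPM in saline and 40.7 CPM in NP (0.32, -0.04 to 0.69), with a UMI in 15.1% and 12.9% of cells.

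Acod1, Ptgs2, Ptges and Arg2 were counted in mature dendritic cells of NP only. Acod1 had 0 and 94 UMIs (162 CPM, 33.3% of NP cells), at least 2.35-fold higher. Ptgs2 had 0 and 115 UMIs (198 CPM, 43.8% of cells), at least 2.88-fold higher, and Ptges had 0 and 64 UMIs (110 CPM, 27.1% of cells), at least 1.60-fold higher. Ptgs2 and Ptges are the consecutive steps to prostaglandin E2. Monocyte markers in the mature dendritic cells summed to 5882 CPM in saline, with 5 of 12 detected, and 16957 CPM in NP, with 12 of 12, while conventional dendritic markers summed to 9811 CPM (6 of 14) and 4578 CPM (11 of 14). The part of these in the enzyme ratios was not tested. Arg2 had 0 and 33 UMIs (56.9 CPM), which is under the 68.9 CPM that the saline count of 0 allows. Conventional dendritic cells had 30.3 CPM of Ptgs2 in saline and 56.9 CPM in NP (0.91, 0.13 to 1.73), but 18 of the 22 saline UMIs were in 1 cell. Ptges had 0 UMIs in conventional cells of both libraries. Ido1 had 2 and 1 UMIs in the whole dendritic class.

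**Figure D5:**
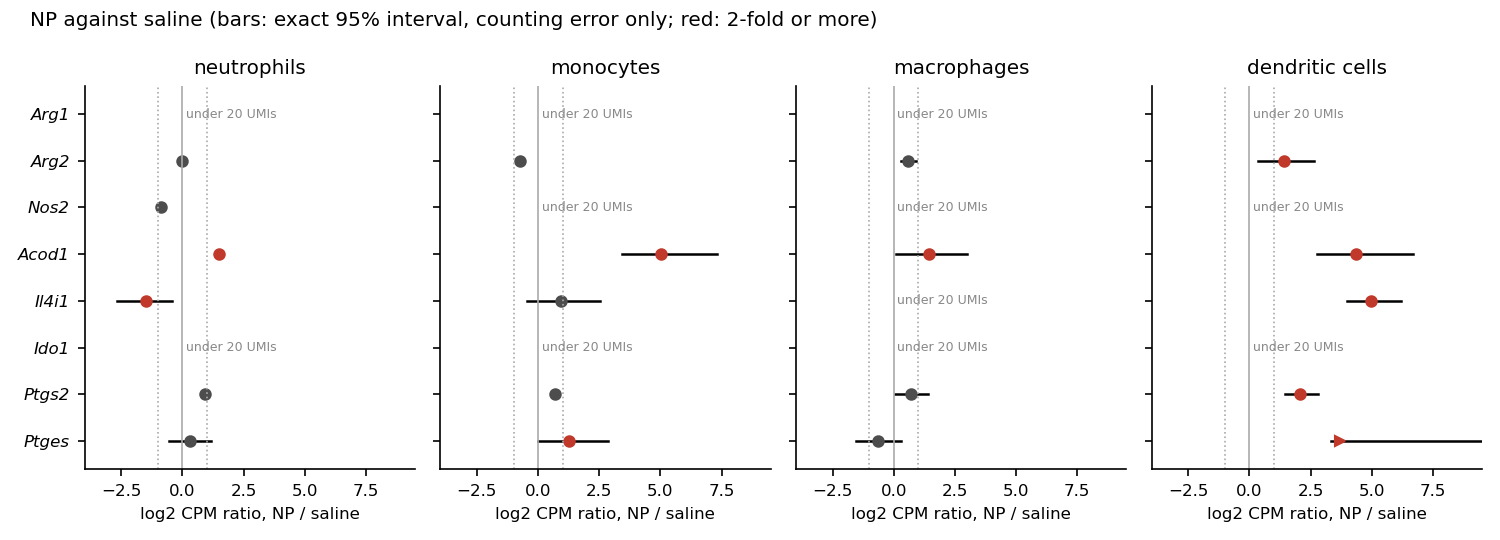
Log2 ratio of CPM, NP over saline, for the 8 enzymes (rows) in 4 classes (panels), with exact 95% intervals for counting error, dotted lines at 2-fold and red points past it; a triangle marks a lower bound. Acod1 lies to the right of 0 in all 4 panels (1.50, 5.00, 1.42 and 4.37), and Arg2 lies at -0.03, -0.72, 0.60 and 1.42.

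Some of the counts share sequence with neighboring genes. Of 4080 exonic bases of Il4i1, 3423 overlap Tbc1d17 on the opposite strand, 97 overlap Nup62 on the same strand and 82 overlap Atf5. Of 1428 exonic bases of Arg2, 285 overlap Vti1b and 116 overlap Gm48780, both on the opposite strand. The sources used here do not state whether counting used strand. In mature dendritic cells Tbc1d17 had 3 UMIs in saline and 14 in NP (log2 ratio -1.51, -3.36 to 0.93), and Nup62 had 0 and 25 UMIs (43.1 CPM in NP, under the 68.9 CPM that the saline count of 0 allows). In neutrophils Vti1b was 50.6 and 50.4 CPM.

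The partner genes of each enzyme were read from fixed lists, with the same limit of 20 UMIs and 2-fold. In neutrophils the arginine and nitric oxide list (transport, arginine synthesis, polyamines and the cofactor of nitric oxide synthase) had 0 of 13 genes higher and 1 lower, Slc7a2, with 25 and 6 UMIs. The Slc7a2 log2 ratio was -1.03, with an interval of -2.61 to 0.29 that included 0. Gch1, which opens synthesis of that cofactor, was 56.0 CPM in saline and 50.9 CPM in NP (-0.14, -0.24 to -0.04). In the tryptophan list 0 of 7 passed in either direction. The itaconate and cysteine defense list had 0 of 15, with a median log2 ratio of -0.26, although Acod1 itself was higher. Its highest member was Slc7a11, the cystine transporter, at 31.3 and 60.5 CPM (0.95, 0.85 to 1.06), named after its value was seen. Among 17 prostaglandin and leukotriene genes 1 was higher and 1 lower. Ptger4, a receptor of prostaglandin E2, went from 3.03 to 6.17 CPM (1.02, 0.68 to 1.37), and Ptger3, another such receptor, from 3.50 to 1.07 CPM (-1.71, -2.38 to -1.10).

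The interferon gamma and NF-kB response lists stood apart from these pathway lists in the neutrophils. Of the interferon gamma response list, 16 of 19 genes were 2-fold higher in NP, with a median log2 ratio of 2.37. Gbp5 (4.31), Cxcl10 (4.27), Ifi47 (3.64) and Gbp3 (2.88) had the highest ratios among those with 100 UMIs. Of the NF-kB response list, 6 of 19 were higher with a median of 0.61, among them the chemokine Cxcl1 (1.43), the adhesion molecule Icam1 (1.26), Traf1 (1.22) and Tnfaip3 (1.19). None was lower in either list. Of 12 genes of alternative activation and hypoxia 1 was past 2-fold, Retnla, with 10 UMIs in each library. Its log2 ratio was 1.02 with an interval of -0.40 to 2.44, so its direction was undetermined. The median log2 ratios were -0.14 for the arginine list, -0.03 for the tryptophan list, -0.21 for the prostaglandin list and 0.04 for the alternative activation list, beside -0.13 for all genes.

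In monocytes 1 of 14 arginine genes was past 2-fold, and none was lower. This was Ass1, which rebuilds arginine from citrulline, at 21.6 CPM in saline and 47.1 CPM in NP (1.12, 0.92 to 1.34). No gene of 11 in the tryptophan list and none of 14 in the itaconate list passed. Of 16 prostaglandin genes 1 was higher and 2 were lower. Hpgd, which breaks down prostaglandin E2, was 65.1 CPM in saline and 28.0 CPM in NP (-1.21, -1.38 to -1.05). The receptor Ptger2 was 6.17 and 2.98 CPM (-1.05, -1.58 to -0.52). Slco2a1, a prostaglandin transporter, had 11 and 52 UMIs (1.35, 0.40 to 2.44). Slco2a1 was also among the leading genes of an endothelial cluster. The summed level of the endothelial markers in monocytes went from 37.1 CPM in saline to 74.8 CPM in NP. Its part in the Slco2a1 ratio was not tested. The interferon gamma list had 15 of 20 genes higher (median 1.21), with Iigp1 at 0 and 469 UMIs, Cxcl9 at 1.75 and 50.6 CPM (4.85), Gbp2 (2.59) and Cxcl10 (2.47). The NF-kB list had 7 of 20 higher (median 0.62), led by Cxcl2 (2.60), Cxcl1 (2.32), Traf1 (1.94) and Ccl4 (1.43). Neither list had a gene 2-fold lower. Of 11 alternative activation genes Mrc1 was higher (17 and 73 UMIs, 1.21) and Chil3 was lower, at 920 and 332 CPM (-1.47). The dissociation list had 0 of 18 past 2-fold in either direction. Medians were 0.25 for the arginine list, 0.15 for the tryptophan list, 0.04 for the itaconate list, -0.14 for the prostaglandin list, 0.11 for the alternative activation list and 0.05 for the dissociation list, beside -0.03 for all genes.

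In macrophages the lists were nearer to equality. Of 14 itaconate and cysteine defense genes 2 were higher, Slc7a11 (7.94 and 34.7 CPM, 2.13) and Hmox1 (85.9 and 179 CPM, 1.06), and of 13 arginine genes Ass1 was higher (7 and 31 UMIs, 1.45). No tryptophan gene of 7, prostaglandin gene of 17 or alternative activation gene of 11 passed. Of 20 interferon gamma genes 4 were past 2-fold upward, all on low counts. Gbp5 and Cxcl9 each had 6 and 25 UMIs (1.36, 0.04 to 2.94), and Iigp1 had 0 and 21. Nlrc5 had 4 and 16 UMIs (1.30), with an interval of -0.33 to 3.34 that included 0. In the same list 1 gene, Cxcl10, was lower (20.2 and 2.23 CPM, -3.18). In the NF-kB list 2 of 19 were higher, Ccl3 (1.35) and Cxcl1 (1.09), and Tnf was lower (-1.28). Of 18 dissociation genes the heat shock genes Hspa1a (1.71) and Hspa1b (1.64) were higher. Medians lay between -0.06 for the arginine list and 0.39 for the NF-kB list, beside -0.05 for all genes.

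In dendritic cells, where the share of mature cells differed, 3 of 14 itaconate and cysteine defense genes were higher, namely Slc7a11 (4.25), Txnrd1 (2.83) and Nfe2l2 (1.36). Pla2g7 was the 1 of 10 prostaglandin genes past 2-fold (2.66), no arginine gene of 12 passed, and in the tryptophan list of 8 genes Slc3a2 was higher (1.15) and Ahr lower (-1.23). The interferon gamma list had 11 of 18 higher and the NF-kB list 9 of 20. Of 11 alternative activation genes 4 were higher, Cebpb (2.20), Slc2a1 (1.81), Chil3 (1.06) and Vegfa (1 and 23 UMIs), and Retnla was lower (-1.55). Of 18 dissociation genes 1, Fosb, was lower (-1.03). Medians ran from -0.52 for the tryptophan list to 1.38 for the interferon gamma list, beside -0.04 for all genes.

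Genes with a pattern like that of each enzyme were sought over 31 profiles, 1 per class and library with at least 20 cells, by Pearson's r of log2(CPM + 1) among 11822 genes. The profiles came from 17 classes. Saline mature dendritic cells (12) and saline interstitial macrophages (16) were under the limit of 20 cells, so these kinds entered with their NP profile only. The profiles share their libraries, so r is a description. Arg2 was most like Trem1 (0.867), Msrb1 (0.849) and Pygl (0.832), and Nos2 most like Mgam (0.844), Mrgpra2a (0.843) and Gm19696 (0.840). Acod1 was most like Hdc (0.748), Fosl1 (0.738) and Mxd1 (0.726), and Ptgs2 most like Dusp1 (0.801), Ier3 (0.791) and Adam8 (0.755). Dusp1 and Ier3 are on the dissociation list. For Il4i1 the nearest were Dnase1l3 (0.809), Lacc1 (0.744) and Spib (0.737), and for Ptges they were Fabp3 (0.822), Nr1h3 (0.810) and Cxcl1 (0.788). Among the members, r was 0.701 between Acod1 and Ptgs2, 0.539 between Arg2 and Nos2, 0.453 between Acod1 and Nos2, and -0.160 between Il4i1 and Arg2.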

How the data were processed

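Raw gene counts (UMIs) per barcode were used as the authors deposited them, with no normalization. Reads had been aligned with Cell Ranger 6.0 to mm10, per the submitters' processing notes. Cells had 500 to 5000 genes and less than 7.5% of UMIs on mitochondrial genes. After scaling each cell to 10000, 2000 variable genes without the 8 enzymes gave 30 components, 20 neighbors and Leiden clusters at resolution 1, with doublets kept and no integration. Neutrophil and phagocyte clusters were clustered again. Clusters were named by marker lists, and a cluster with mixed markers was left unnamed. UMIs were summed per class and library and given as CPM with exact Poisson intervals, shares of cells with exact binomial (Clopper-Pearson) intervals, and ratios with exact conditional binomial intervals. A ratio needed 20 UMIs over both libraries, so a gene could pass through a single library in which it was high. A count under 3 was set to 3. Thinned values use 1000 UMIs per cell.

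The 8 members and the gene lists were chosen with earlier results of these data known. Named list genes were those past 2-fold with at least 100 UMIs in neutrophils or monocytes, at most 4 per list and class, and those outside this rule were named after their values were seen. Of the gene identifiers, 99.6% were found in GENCODE on GRCm38. The scripts were tested on simulated data and used Python 3.11.15, NumPy 2.4.6, SciPy 1.17.1, scikit-learn 1.9.0, leidenalg 0.10.2, scanpy 1.11.5 and matplotlib 3.10.9. Alternatives covered cell filters, doublets, clustering, scaling, depth, free RNA and the UMI minimum.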

Additional observations from a re-analysis of the deposited data

Results flagged for a closer look

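Some enzymes went in opposite directions in different classes, and these differences were not tested. Il4i1 was lower in NP neutrophils (log2 ratio -1.48) and higher in NP dendritic cells (4.98), a difference of 6.46, with the neutrophil count resting largely on 1 saline cell. Arg2 was lower in NP monocytes (-0.72) and higher in NP macrophages (0.60), a difference of 1.32, and differed by 2.14 between monocytes and dendritic cells. With cells classed by their own marker scores, Arg2 was -0.18 in macrophages and -0.38 in dendritic cells, so the directions were no longer opposite to the -0.76 of monocytes under that choice.

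Acod1 and Ptgs2 were also higher in NP in some classes outside the 4 compared. Only classes with at least 20 UMIs and an interval above 0 are listed here, so the list does not describe the remaining classes. For Acod1 the log2 ratio was 1.38 in T cells (39 and 88 UMIs), 1.75 in platelets and megakaryocytes (27 and 100), 1.01 in stromal cells (15 and 44) and 5.24 in erythroid cells (4 and 132). For Ptgs2 it was 0.99 in basophils and mast cells (89 and 274 UMIs), 1.01 in endothelial cells (33 and 253), 2.08 in epithelial cells (20 and 110) and 2.49 in erythroid cells (11 and 54). The free RNA of the libraries held more of both genes in NP (Acod1 56.3 and 102 CPM, Ptgs2 66.9 and 97.3 CPM), and its part in these ratios was not tested. The erythroid class numbered only 15 and 18 cells, and 3.32% of its UMIs fell on the mature neutrophil list. It came out of the second clustering of the neutrophils. Its marker score was 1.37 for erythroid cells and 0.66 for neutrophils. Its ratios therefore cannot be read as those of erythroid cells, or of a class apart from the neutrophils.

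A cluster of 3 saline and 81 NP cells led by Cxcl10 was left unnamed and out of the neutrophils. Acod1 was 481 CPM in its saline cells (5 UMIs) and 1940 CPM in its NP cells (665 UMIs), a log2 ratio of 2.01. Ptgs2 had 0 and 338 UMIs there (986 CPM in NP), at least 1.77 higher on the log2 scale.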

How the results depend on the processing

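No paired analysis was possible because each condition had 1 library. Of 269 alternative log2 ratios for 20 combinations of enzyme and class, 223 kept their value within counting error, 45 moved and 1 reversed, Arg2 in dendritic cells, at -0.38 with cells classed by their own marker scores. In neutrophils the count of members past 2-fold, 2 as reported, was 1 with at least 800 genes, a mitochondrial limit of 5%, own marker scores, members among the clustering genes, equal weight per cell, without the top cell, and with the same mix of clusters (added after the data were seen). It was 3 at resolution 2, with median scaling and with unnamed clusters given back (added later). In monocytes the 2 became 1 with at least 800 genes, a mitochondrial limit of 10%, resolution 2 and a minimum of 50 UMIs. The same mix of clusters also gave 1. The count was 0 with thinning, and 3 with a mitochondrial limit of 5%, own marker scores and without the top cell. Acod1 in monocytes was past 2-fold in all 14 alternatives where it reached the UMI minimum. With thinning it did not reach that minimum, so that 0 says nothing about Acod1. In macrophages the 1 became 0 with doublets removed, own marker scores, members among the clustering genes, thinning, free RNA subtracted and a minimum of 50 UMIs, and 2 without the top cell. No macrophage member reached 20 UMIs with thinning, so that 0 says nothing. Acod1, the 1 member counted, also fell under the minimum with free RNA subtracted and at 50 UMIs. Those 0 counts say nothing about its ratio either. In dendritic cells the 5 became 3 with own marker scores, 1 with thinning and 0 in conventional cells alone (added later), where only 1 member had 20 UMIs in each case. At a mitochondrial limit of 5% no dendritic class was named, so no value exists.

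Acod1 in neutrophils ranged from 0.94 (at least 200 genes) to 1.64 on the log2 scale and Nos2 from -1.06 to -0.52. Ptgs2 in neutrophils ranged from 0.09, with members among the clustering genes, to 1.13 at resolution 2, and its side of the 2-fold mark depended on these choices. Acod1 in monocytes was 1.68 with own marker scores and 1.52 with unnamed clusters given back. Arg2 in macrophages was -0.18 with own marker scores, and Ptgs2 there ranged from -0.58 to 2.39. Depth limited Il4i1, Ptges, Ido1 and Arg1 in most classes, and the 12 shallow mature dendritic cells of saline limited that class.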
